A study of Mus musculus with 6 samples.

Results

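The respiratory chain subunits described here are 98 protein-coding genes, 85 encoded in the nucleus and 13 in mitochondrial DNA, of 55536 Ensembl genes listed. They were chosen by symbol alone: the Nduf genes of complex I, the Sdh genes of complex II, the Uqcr genes and Cyc1 of complex III, the Cox4 to Cox8 genes of complex IV, the Atp5 genes of ATP synthase, Cycs, and the mitochondrial mt-Nd, mt-Co, mt-Cytb and mt-Atp genes, with Cox7b2 left out. Levels were compared between 3 libraries of wild-type (WT) mouse embryonic stem cells and 3 labelled Max-KO, of genotype Max-/-, all of strain C57BL/6. Max is the partner with which MYC proteins bind DNA. The labels do not say how the allele was made, whether the Max-KO libraries come from 1 clone, or whether samples within a group were cultured separately. The spread behind each p-value is thus that of these samples alone and may be technical.

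Electrons from NADH enter the chain at complex I and those from succinate at complex II. They pass through ubiquinone to complex III, through cytochrome c to complex IV and so to oxygen, while complexes I, III and IV pump protons and ATP synthase (complex V) uses their return. Mitochondrial DNA encodes a few hydrophobic subunits of complexes I, III, IV and V and none of complex II. All other subunits are nuclear, so each mixed complex joins products of both genomes.

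The libraries held 645169 to 774405 summed FPKM (fragments per kilobase of transcript, scaled to mapped fragments), lowest in the Max-KO libraries, and read depth is not given in them. Marker genes of pluripotent cells summed to 1508 to 1580 FPKM in WT and 1803 to 1903 in Max-KO, and 5 germ cell markers to 26.5 to 32.4 and 846 to 881. Of 6 markers of fibroblasts, the usual feeder cells, 4 were under 1 FPKM in every library and 1 of the 2 tested was higher. Markers of primitive endoderm summed to 0.84 to 1.42 FPKM in WT and 2.27 to 5.6 in Max-KO. Those of trophoblast summed to 30.6 to 31.6 and 28.3 to 34.8. Both endoderm markers tested, Gata4 and Sox17, were higher, as were 3 of the 4 trophoblast markers tested, Gata3, Krt7 and Eomes. Gata4, Sox17, Gata3 and Krt7 passed the filter only through Max-KO, so their direction was set by the filter. Most of the trophoblast FPKM was Tfap2c, at 27.7 in WT and 22.5 in Max-KO on average, which was not called. The calls of Gata4, Sox17, Krt7 and Eomes were lost under quantile normalization. The part of cells with any of these markers in the results below was not tested. Max itself was listed at 41.6, 50.2 and 42.3 FPKM in WT and 35.8, 39.6 and 43.4 in Max-KO. A gene-level FPKM does not show a missing exon, so it does not check the genotype, and directions below compare what was labelled Max-KO with what was labelled WT. WT replicate 3 stood apart: mitochondrial subunits held 3.63% of its FPKM, against 5.06% and 5.14% in the other WT libraries and 5.18% to 5.57% in Max-KO.

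Short sequences from these genes and their copies show what the values rest on. The mouse nucleus holds a copy of part of mitochondrial DNA on chromosome 1, and fragments from matching stretches cannot be assigned to either by sequence. The start of mt-Nd3 (GRCm38, chromosome M, 9459 to 9518, plus strand) and of its copy Gm28438 (chromosome 1, 24613060 to 24613119, minus strand) is shown with the only mismatch of 345 aligned bases in capitals.
mt-Nd3: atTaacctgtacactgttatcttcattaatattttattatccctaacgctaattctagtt
Gm28438: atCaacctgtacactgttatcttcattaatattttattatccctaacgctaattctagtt
The copy Gm28438 was listed at 710 to 1287 FPKM over the 6 libraries and mt-Nd3 itself at 180.2 to 472.

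MYC and MAX bind the E-box, whose palindromic core is CACGTG. A RefSeq promoter on GRCm38.p6, from 250 bases before to 50 after a gene's start, matched 68 of the 85 nuclear members. The core was in 7 of their 73 promoters (9.59%), against 2349 of all 32851 promoters (7.15%). The 6 genes were Ndufv1, Ndufa7 and Atp5g3, which were lower in Max-KO, Atp5l, which was higher, and Atp5f1 and Atp5g1, which were not called. Their stretches upstream of the start are shown with the core in capitals, from Ndufv1 (chr19:4012892-4012951, minus strand), Ndufa7 (chr17:33824473-33824532, plus), Atp5g3 (chr2:73911532-73911576, minus), Atp5l (chr9:44920857-44920916, minus), Atp5f1 (chr3:105959480-105959513, minus) and Atp5g1 (chr11:96075643-96075702, minus).
Ndufv1: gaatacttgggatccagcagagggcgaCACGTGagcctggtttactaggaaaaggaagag
Ndufa7: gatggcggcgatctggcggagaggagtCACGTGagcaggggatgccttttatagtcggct
Atp5g3: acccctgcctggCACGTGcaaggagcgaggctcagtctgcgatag
Atp5l: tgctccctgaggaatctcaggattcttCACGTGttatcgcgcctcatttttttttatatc
Atp5f1: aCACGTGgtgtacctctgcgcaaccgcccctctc
Atp5g1: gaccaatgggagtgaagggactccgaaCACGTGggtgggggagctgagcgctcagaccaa
The core was thus in 3 of 24 lower, 1 of 11 higher and 2 of 32 uncalled genes with a promoter. The motif reads the same on either strand, and a match is a description of the sequence only.

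Nuclear subunits went both ways in Max-KO. A gene was called at an adjusted p under 0.05 in limma, fitted on log2(FPKM + 1) over all 14661 genes that averaged 1 FPKM or more in WT, in Max-KO or in both. That fit called 66.2% of all genes, 43.0% as higher and 23.2% as lower. Of the 82 nuclear subunits tested, 18 were higher, 29 were lower and 35 were not called. Over all genes the median log2 difference stood at 0.21, and for the nuclear subunits at −0.10, or −0.31 relative to all genes, with 65 of 82 below the all-gene median. Groups did not overlap for 52 of the 82, 19 higher and 33 lower, against 72.0% of all genes. In such bulk libraries, fewer cells of a type and less RNA per cell cannot be told apart. The 3 untested members were Cox6a2 and Cox8b, the muscle isoforms, listed at 0 in all but 1 library and in all 6, and a second Atp5o locus, listed above 0 in 1 library. Cox8c, 1 of the 18 higher, passed the filter only through Max-KO, so its direction was set by the filter.

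The balance of higher and lower calls moved with the scaling. Median-ratio scaling gave 8 higher and 48 lower nuclear subunits, where 33.4% and 31.6% of all genes were called higher and lower. Rescaling each library to a fixed sum (TPM) gave 33 and 12, against 54.6% and 15.7% of all genes. Scaling to the summed nuclear protein-coding FPKM gave 38 and 10, against 55.7% and 14.9%, and quantile normalization 29 and 22, against 28.8% and 33.0%. Relative to the median of all genes, the nuclear median stayed between −0.33 and −0.28 under the 3 scalings other than quantile normalization, where it was 0.04. Under all 4 scalings 7 of the 18 higher and 9 of the 29 lower calls were kept. The higher ones were Ndufa1, Ndufa3, Ndufb3, Uqcrb, Cox6b2, Cox6c and Atp5mpl, and the lower ones included Ndufs7, Sdhb, Atp5a1, Atp5c1, Atp5d, Atp5e, Atp5g2 and Atp5g3. Their size still moved with the setting. Over all alternatives the log2 difference of Ndufa1 ran from 0.49 to 1.05, that of Cox6c from 0.31 to 0.92, that of Atp5mpl from 0.24 to 0.85, that of Sdhb from −0.91 to −0.46, that of Ndufs7 from −0.67 to −0.23 and that of Atp5g3 from −0.80 to −0.27.

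**Figure D1:**
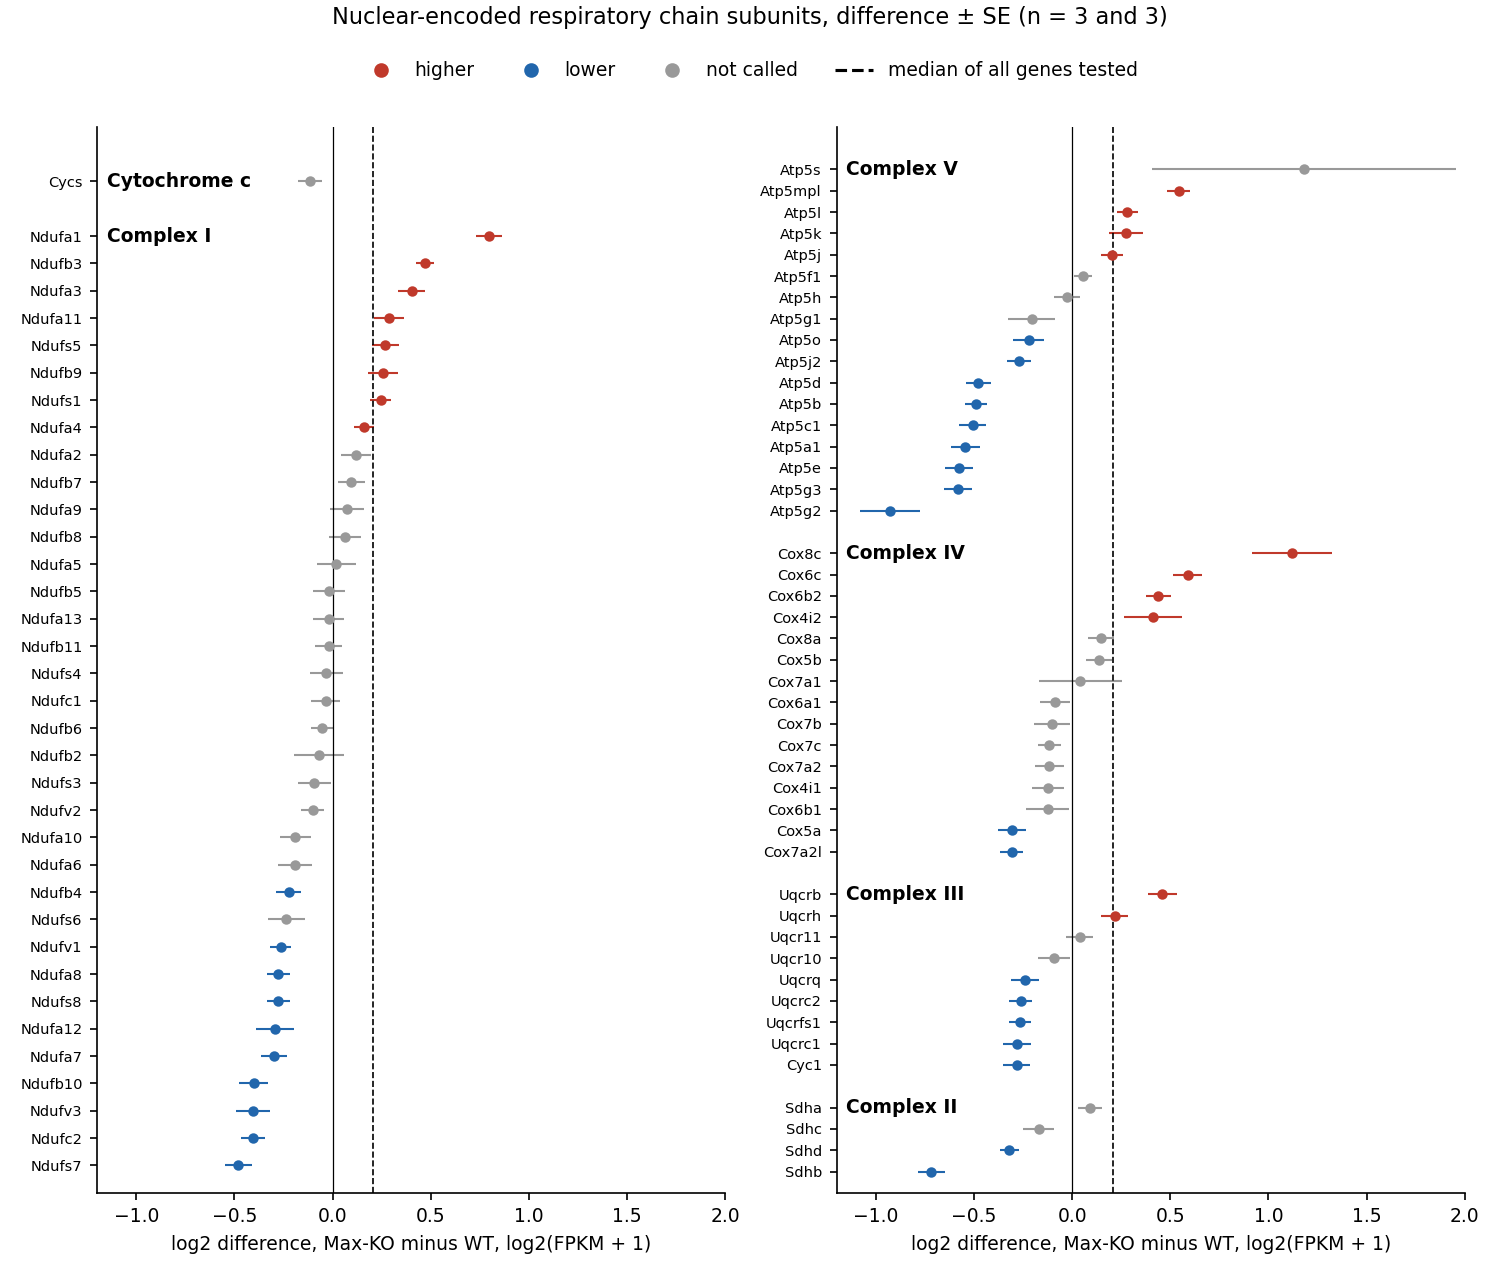
Log2 difference of 81 of the 82 tested nuclear subunits (Max-KO minus WT, from log2(FPKM + 1) values), by complex, with bars for ± 1 SE (n = 3 and 3) and a dashed line at the median of all genes tested (0.21). The ATP synthase genes spread from −0.93 (Atp5g2) to 0.54 (Atp5mpl) among called members, and Atp5s, with the widest bar, was not called.

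The genes of ATP synthase are described by the part of the enzyme they build. The soluble F1 head, where ATP is made, and its central stalk are encoded by Atp5a1 (alpha), Atp5b (beta), Atp5c1 (gamma), Atp5d (delta) and Atp5e (epsilon). All 5 were lower in Max-KO, by 0.48 to 0.58 on the log2 scale, and their groups did not overlap. Of all genes, 23.2% were called lower and 72.0% did not overlap between groups. These groupings by role were drawn up after the values had been seen, and differences between them were not tested. The catalytic beta subunit gene Atp5b (GRCm38 chromosome 10, 128083273 to 128090391, plus strand) was listed at 2413, 2376 and 2598 FPKM in WT and 1732, 1750 and 1781 in Max-KO. Every Max-KO library was thus below every WT library, and the log2 difference was −0.49 ± 0.06 (SE, limma, adjusted p = 0.000285). Its partner in the catalytic ring, Atp5a1, was at 521, 531 and 613 FPKM in WT and 369, 387 and 382 in Max-KO (log2 difference −0.54 ± 0.07, limma, adjusted p = 0.000535). The rotor gene Atp5c1 fell from 243.1 ± 18.6 to 170.5 ± 6.72 FPKM (SD, n = 3), Atp5d from 203.4 ± 15.1 to 145.5 ± 3.60 and Atp5e from 324.2 ± 28.4 to 216.8 ± 6.19. Atp5a1, Atp5c1, Atp5d and Atp5e kept their call under every alternative setting, and Atp5b lost it and changed sign only under quantile normalization (0.06, adjusted p = 0.186). In sum, the F1 genes held 0.486% to 0.523% of a library's FPKM in WT and 0.409% to 0.410% in Max-KO.

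The c ring of ATP synthase turns as protons pass, and 3 nuclear genes encode an identical mature c subunit. Atp5g3 was lower, at 472, 460 and 540.0 FPKM in WT and 331, 317 and 334 in Max-KO (log2 difference −0.58 ± 0.07, limma, adjusted p = 0.000373). Atp5g1 was at 435, 401 and 513 in WT and 334, 410 and 425 in Max-KO, with overlapping groups, and was not called (−0.21 ± 0.12, adjusted p = 0.168). Atp5g2 (chromosome 15, 102662864 to 102672352, minus strand) had the largest fall of all nuclear subunits. It was at 39.7, 30.2 and 34.4 FPKM in WT and 14.5, 21.2 and 18.0 in Max-KO (−0.93 ± 0.15, adjusted p = 0.00148). These values are uncertain, because Gm10175, a processed copy on chromosome 7 identical over 645 bases, was listed at 584 ± 54.5 FPKM in WT and 369 ± 21.6 in Max-KO (n = 3, SD). With the copy added, the log2 difference was −0.67 ± 0.08 (adjusted p = 0.000278). Atp5g2 and Atp5g3 kept their calls under every alternative. Atp5g1 held 46.0% ± 1.08 of the FPKM of the 3 genes in WT and 52.9% ± 3.20 in Max-KO (n = 3, SD), and its share was higher in 3 of 3 Max-KO libraries than in any WT library. With the copy counted as Atp5g2, a choice made after the data had been seen, the share of Atp5g1 was 28.8% ± 0.814 and 35.2% ± 2.75, again without overlap.

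The small membrane subunits and the peripheral stalk went both ways. Of the small membrane subunits, Atp5mpl, Atp5k and Atp5l were higher and Atp5j2 was lower. Atp5mpl (chromosome 12, 111961375 to 111966977, minus strand), which encodes the 6.8 kDa proteolipid, was at 279.6, 285 and 289 FPKM in WT and 402, 446 and 399 in Max-KO. The groups were well apart, with a log2 difference of 0.54 ± 0.06 (limma, adjusted p = 0.000217), and the call was kept under every alternative. Atp5l (subunit g) rose by 0.28 ± 0.05 and Atp5k (subunit e) by 0.27 ± 0.09 on the log2 scale, and Atp5j2 (subunit f) fell by 0.27, but the calls of Atp5k and Atp5l were lost under median-ratio scaling, that of Atp5l also with the GC and length correction, and that of Atp5j2 under the other 3 scalings. A processed copy of Atp5l, Gm10221, identical over 309 bases, was listed at 259 and 350 FPKM on average in WT and Max-KO, so part of the Atp5l reads is uncertain. Of the peripheral stalk, which holds the head still, Atp5j (coupling factor 6) was higher (0.20 ± 0.06), Atp5o was lower (−0.22 ± 0.08), and Atp5f1 (0.06 ± 0.05) and Atp5h (−0.03 ± 0.07) were not called. Atp5j lost its call under median-ratio scaling and with the GC and length correction, and Atp5o changed sign under the other 3 scalings. Atp5s, a coupling factor outside the core enzyme, was at 8.74, 3.16 and 4.18 FPKM in WT and 6.45, 40.5 and 6.94 in Max-KO, where 1 library made the difference, and it was not called (adjusted p = 0.228).

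**Figure D2:**
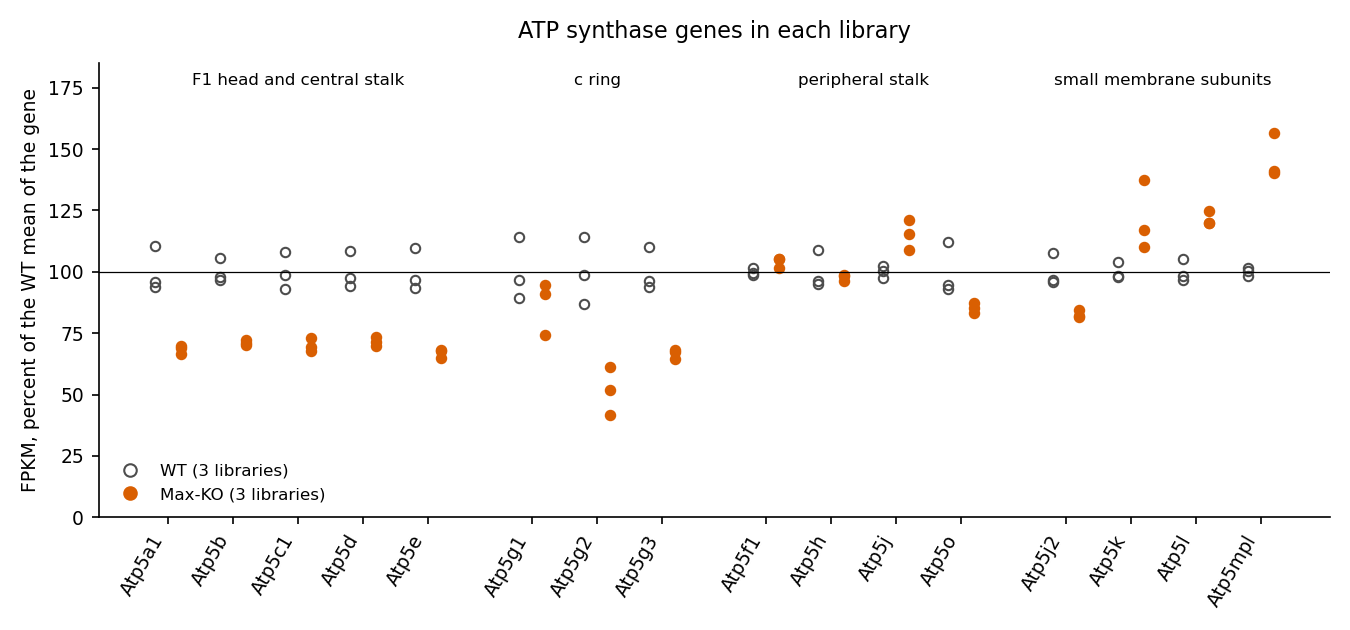
FPKM of 16 nuclear ATP synthase genes in each library as a percentage of the gene's WT mean, with open points for the 3 WT and filled points for the 3 Max-KO libraries. All Max-KO points of the 5 F1 genes lie below all WT points, while Atp5mpl, Atp5l and Atp5k lie above.

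**Figure D3:**
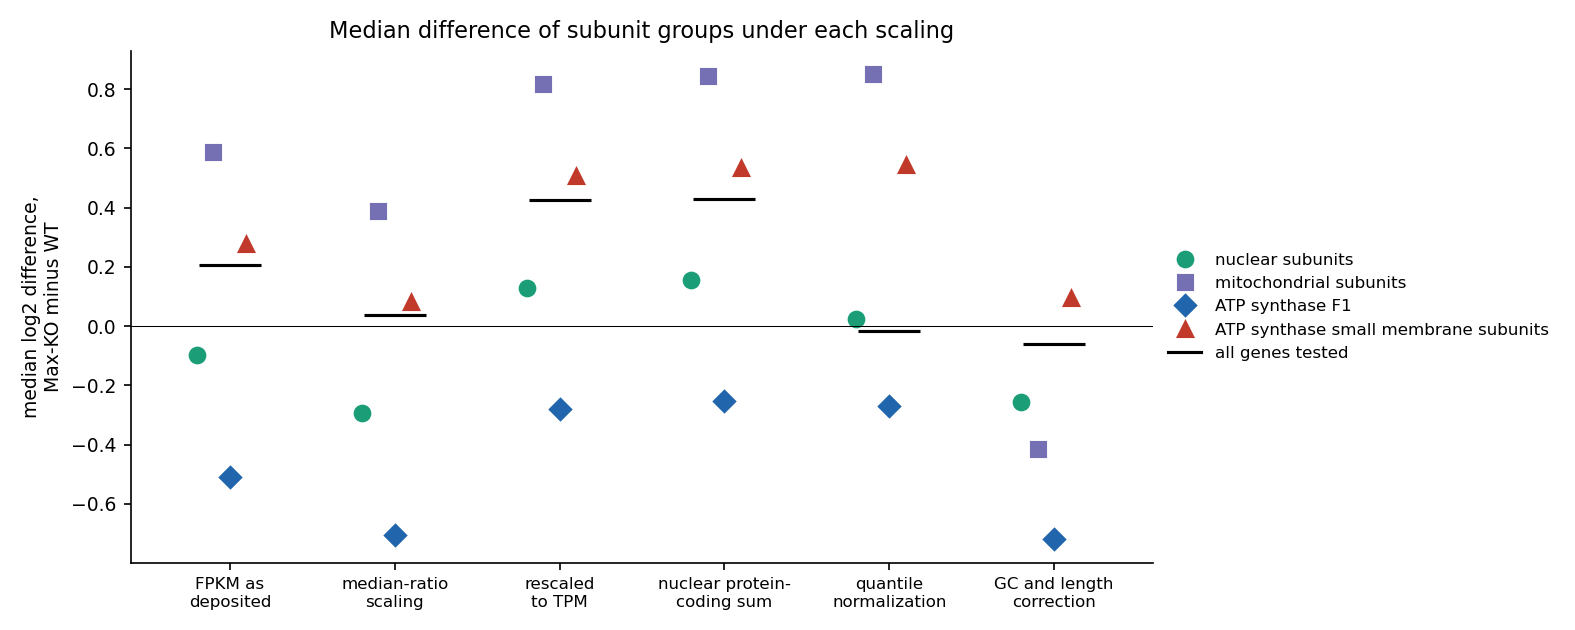
Median log2 difference of 4 subunit groups and of all genes tested (black bars) under the deposited FPKM, 4 other scalings and a correction for GC content and transcript length. The F1 median lay below that of all genes in each (−0.51 against 0.21 as deposited), and the mitochondrial median went from above to below it with the GC and length correction (−0.42 against −0.06).

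Complex III had 2 higher and 5 lower of 9 nuclear members, where 43.0% of all genes were called higher and 23.2% lower. The 4 genes of its core and catalytic subunits were lower in Max-KO: the core proteins Uqcrc1 (−0.28 ± 0.07) and Uqcrc2 (−0.26 ± 0.06), the Rieske iron-sulfur protein Uqcrfs1 (−0.27 ± 0.06) and cytochrome c1, Cyc1 (−0.28 ± 0.07). Cyc1 was at 151, 145 and 171 FPKM in WT and 130.2, 125 and 127 in Max-KO, with no overlap (limma, adjusted p = 0.00943). The other 3 were at 88.3 to 207 FPKM in WT and 75.0 to 158 in Max-KO, each without overlap between groups. None of the 4 was called after rescaling to TPM (median −0.04) or to the nuclear protein-coding sum (−0.02), although their median was −0.47 and −0.45 relative to all genes there. Cyc1 and Uqcrc1 also lost their calls under quantile normalization, and Cyc1 with the GC and length correction. Among the small subunits, Uqcrb, which binds ubiquinone, rose from 277, 273 and 234 to 361, 358 and 357 FPKM (0.46 ± 0.07, adjusted p = 0.00122), a call kept under all 4 scalings. After the GC and length correction its difference was −0.05. Uqcrh, the hinge protein, was higher (0.22 ± 0.07) and Uqcrq lower (−0.24 ± 0.07), Uqcr10 (−0.09 ± 0.08) and Uqcr11 (0.04 ± 0.07) were not called, and the calls of Uqcrh and Uqcrq were each lost under at least 1 scaling. Cytochrome c itself, Cycs, was at 20.1, 20.9 and 20.6 FPKM in WT and 19.5, 19.0 and 18.1 in Max-KO and was not called (−0.12 ± 0.06, adjusted p = 0.135). Gm10053, which differs from Cycs at 1 of 946 aligned bases, was listed at 59.6 ± 3.66 and 56.4 ± 2.65 FPKM (SD, n = 3), so the level of Cycs is uncertain.

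Complex II has 4 nuclear subunits and no mitochondrial one. Its iron-sulfur subunit gene Sdhb (chromosome 4, 140961203 to 140979193, plus strand) was lower, at 97.7, 97.4 and 109 FPKM in WT and 58.0, 64.8 and 61.0 in Max-KO. The log2 difference was −0.72 ± 0.07 (limma, adjusted p = 0.000116), and the call was kept under every alternative. The membrane anchor gene Sdhd was lower by less, at 112, 112 and 120.3 FPKM in WT and 91.0, 92.5 and 91.9 in Max-KO (−0.32 ± 0.05, adjusted p = 0.00115), and lost its call under TPM and the nuclear protein-coding sum. The other anchor, Sdhc (−0.17 ± 0.08, adjusted p = 0.0945), and the flavoprotein Sdha (0.09 ± 0.06, adjusted p = 0.228) were not called. The difference between Sdhb and the other subunits of its complex was not tested.

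Complex I had 36 nuclear members, 8 of them higher and 11 lower, with a median of −0.04, or −0.25 relative to all genes. Genes were assigned to complexes by symbol throughout, so Ndufa4 is counted here whichever complex holds its product. Most of its core genes encode subunits that carry the flavin or iron-sulfur clusters. Among the core genes, Ndufs7, Ndufs8 and Ndufv1 were lower and Ndufs1 was higher. Ndufs3 (−0.09 ± 0.08) and Ndufv2 (−0.10 ± 0.06) were not called. Ndufs7 (chromosome 10, 80249121 to 80256794, plus strand), which holds the last cluster before ubiquinone, was at 74.5, 75.0 and 84.4 FPKM in WT and 57.5, 52.8 and 56.4 in Max-KO (−0.48 ± 0.07, limma, adjusted p = 0.00071). Its call was kept under every alternative. Ndufs8 (−0.28 ± 0.06) and Ndufv1 (−0.26 ± 0.05) lost theirs under TPM and the nuclear protein-coding sum, and Ndufs1 (0.24 ± 0.05) under median-ratio scaling. With the GC and length correction the call of Ndufs8 was lost and Ndufs1 turned to −0.09 with its call lost.

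The 29 accessory genes of complex I, which surround the core and serve its assembly and stability, counted 7 higher and 7 lower. Over all genes 43.0% were called higher and 23.2% lower. Ndufa1 (chromosome X, 37187588 to 37191163, minus strand), a small subunit of the membrane arm, had the largest rise among the nuclear genes of complex I. It was at 106, 101 and 114 FPKM in WT and 174, 192 and 192 in Max-KO, with a log2 difference of 0.80 ± 0.07 (limma, adjusted p = 6.42e-05), and the call was kept under every alternative. Ndufb3 rose from 68.2, 70.5 and 68.6 to 94.8, 97.1 and 96.4 FPKM (0.47 ± 0.05, adjusted p = 0.000123), and Ndufa3 by 0.40 ± 0.07 (adjusted p = 0.00186). The call of Ndufa3 was kept under every alternative and that of Ndufb3 was lost with the GC and length correction. Ndufa7, the most abundant complex I gene among the nuclear members, was at 347, 357 and 394 FPKM in WT and 284, 296 and 310 in Max-KO (−0.30 ± 0.07, adjusted p = 0.00571), a call lost under 3 of the 4 scalings.

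Complex IV, cytochrome c oxidase, had 4 higher and 2 lower of 15 tested nuclear members, against 43.0% and 23.2% of all genes. Isoforms that replace each other across tissues were among its members. Cox6c (chromosome 15, 35925886 to 35938246, minus strand), a small membrane subunit with no such isoform, rose from 354, 322 and 292 to 485, 485 and 485 FPKM (0.59 ± 0.07, limma, adjusted p = 0.00042). Cox6b2 (chromosome 7, 4751792 to 4753094, minus strand), the testis isoform of the cytochrome c-facing subunit, was at 48.3, 48.5 and 43.4 FPKM in WT and 65.3, 60.9 and 64.7 in Max-KO (0.44 ± 0.06, adjusted p = 0.000833). Both kept their call under every alternative. The ubiquitous Cox6b1 was at 281 to 382 FPKM in WT and 287 to 301 in Max-KO and was not called (−0.13 ± 0.11, adjusted p = 0.334). Cox6b2 thus held 12.8% ± 2.32 of the FPKM of the pair in WT and 17.7% ± 0.183 in Max-KO (n = 3, SD), without overlap.

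The tissue isoforms Cox8c and Cox4i2 were at low levels. Cox8c, known from testis, was at 0.40, 0 and 0.22 FPKM in WT and 1.65, 2.19 and 1.08 in Max-KO (1.12 ± 0.20, limma, adjusted p = 0.00233), and held 0.219% to 0.466% of the Cox8 FPKM in Max-KO. It passed the filter only through Max-KO, so its direction was set by the filter, and its call was lost under quantile normalization. Cox4i2, the isoform known from lung and low oxygen, was at 1.87, 1.05 and 1.47 FPKM in WT and 2.35, 2.36 and 2.04 in Max-KO (0.41 ± 0.15, adjusted p = 0.0422), and lost its call under median-ratio scaling and quantile normalization and without any of 5 libraries, namely WT 2, WT 3 and each Max-KO library. Their ubiquitous counterparts Cox8a (0.15 ± 0.06) and Cox4i1 (−0.12 ± 0.08) were not called. Cox4i1 was at 618 to 749 FPKM in WT and 594 to 620 in Max-KO. Of the Cox7a genes, the muscle form Cox7a1 (0.04 ± 0.21), at 20.4 to 34.0 FPKM over the 6 libraries, and the liver form Cox7a2 (−0.12 ± 0.07), at 167 to 209, were not called. Cox7a2l was lower, at 122 to 137 FPKM in WT and 101 to 106 in Max-KO (−0.31 ± 0.06, adjusted p = 0.00307). It has been described as joining complexes III and IV in a supercomplex, and whether it does so in this strain was not tested. Cox5a was lower too (−0.31 ± 0.07, adjusted p = 0.00636), and Cox6a1, the counterpart of the muscle gene Cox6a2, was not called (−0.09 ± 0.08). The calls of Cox7a2l and Cox5a were lost under TPM and the nuclear protein-coding sum, and that of Cox5a also under quantile normalization. Cox7c, the most abundant nuclear gene of the complex, was not called (−0.12 ± 0.06), and its copy Gm12338, identical over 192 bases, was listed at 695 ± 49.9 FPKM in WT and 432 ± 134 in Max-KO (n = 3, SD).

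Called members of the 2 directions had transcripts of different median length. The median was 533.5 bases for the 18 higher, 740 for the 29 lower and 572 for the 35 uncalled members. Across the 82 genes, Spearman's rho between length and log2 difference was −0.372, against 0.138 over all 14661 genes, and between GC content and log2 difference −0.172, against −0.288. These genes share the same 6 libraries, so the correlations are descriptions. A correction for both within the fit gave 14 higher and 46 lower, against 27.7% and 35.6% of all genes.

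The 13 genes of mitochondrial DNA did not move as a unit. They are transcribed as long precursors, cut apart at transfer RNAs, so that most genes of a strand start in equal number. As deposited, mt-Nd2, mt-Nd4 and the neighbours mt-Nd5 and mt-Nd6, all subunits of complex I, were higher in Max-KO, mt-Atp8 was lower and 8 were not called. The largest rise was in mt-Nd5 (chromosome M, 11742 to 13565, plus strand), a proton-pumping subunit, at 721, 722 and 371 FPKM in WT and 1719, 1813 and 1662 in Max-KO. The groups lay far apart, with a log2 difference of 1.58 ± 0.26 (limma, adjusted p = 0.00252). Its neighbour mt-Nd6 (13552 to 14070, minus strand), the only one of the 13 encoded on the opposite strand, was at 656, 643 and 358 FPKM in WT and 1457, 1606 and 1428 in Max-KO (1.49 ± 0.24, adjusted p = 0.00198). The 2 genes overlap by 14 bases, and strand use in the counting was not stated, so reads from mt-Nd6 and from the strand opposite it cannot be told apart. Both calls were kept under every alternative, but the GC and length correction cut the differences to 0.67 for mt-Nd5 and 0.52 for mt-Nd6.

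mt-Nd2 was at 1039, 1047 and 785 FPKM in WT and 1489, 1627 and 1482 in Max-KO (0.69 ± 0.12, limma, adjusted p = 0.00171). mt-Nd4 was at 1523, 1521 and 986 in WT and 2111, 2223 and 2137 in Max-KO (0.71 ± 0.17, adjusted p = 0.00861). Both were higher in 3 of 3 Max-KO libraries than in any WT library, and both reversed with the GC and length correction (−0.17 and −0.24). mt-Atp8, an ATP synthase subunit of the membrane part, was at 15510, 16673 and 10891 FPKM in WT and 9670, 10650 and 10513 in Max-KO (−0.46 ± 0.16, adjusted p = 0.0352). Its call was lost without any of the libraries WT 1, WT 2 and Max-KO 1 to 3, and under TPM, quantile normalization, the nuclear protein-coding sum and no filter. The GC and length correction enlarged the difference to −1.72 (adjusted p = 6.37e-06). mt-Nd1 (0.00 ± 0.12), mt-Co1 (0.01 ± 0.06) and mt-Cytb (0.20 ± 0.11) were not called. Their levels ran from 2402 to 3179, from 8884 to 9856 and from 1492 to 2091 FPKM over the 6 libraries. The level of mt-Co1 is uncertain, because the shorter copy Gm29216 on chromosome 1 (24615706 to 24616197, minus strand; 99.79% identity over 483 bases) was listed at 2771 to 2940.5 FPKM in WT and 2054 to 2357 in Max-KO, without overlap. It covers only part of mt-Co1 and was not added to it.

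WT replicate 3 had the lowest level of the WT group for 12 of the 13 mitochondrial genes. Without it, mt-Nd5 was higher by 1.26 ± 0.04, mt-Nd6 by 1.20 ± 0.06, mt-Nd2 by 0.55 ± 0.05 and mt-Nd4 by 0.50 ± 0.04, and mt-Atp8 was lower (−0.65 ± 0.06, limma, adjusted p = 0.000252). The median of the 13 genes relative to all genes was 0.38 with all libraries and 0.09 without that one. A higher median of the mitochondrial genes therefore rested on that library, and the separate rises of the 4 Nd genes and the fall of mt-Atp8 were called without it.

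The other 5 mitochondrial genes have copies of nearly their whole length, with 99.71% to 100% identity, in the chromosome 1 stretch, and most of the FPKM was listed under the copy. Gm28661 held 90.6% to 96.3% of the FPKM it shares with mt-Co2, Gm10925 76.8% to 96.1% with mt-Atp6, Gm28437 75.1% to 91.6% with mt-Co3, Gm10222 79.0% to 87.9% with mt-Nd4l and Gm28438 69.4% to 82.6% with mt-Nd3. As deposited, these genes scattered widely within a group. mt-Atp6 was at 273, 730.4 and 132 FPKM in WT and 725, 540 and 490.0 in Max-KO, and mt-Co3 at 985, 850 and 638 and at 473, 1169 and 1509. None of the 5 was called.

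Adding the copy drew the libraries together, an alternative chosen after the data had been seen. With it, mt-Atp6 was at 4829, 4892 and 3343 FPKM in WT and 3121, 3374 and 3255 in Max-KO. Its log2 difference turned from 0.95 ± 0.64 to −0.40 ± 0.15 (limma, adjusted p = 0.0457), and without WT 3 it was −0.58 ± 0.04. mt-Nd4l went from 4734, 5050 and 2948 in WT to 6234, 6999 and 6639 in Max-KO (0.68 ± 0.20, adjusted p = 0.0222; 0.44 ± 0.06 without WT 3). mt-Co3 was higher (0.39 ± 0.13, adjusted p = 0.0336; 0.23 ± 0.04 without WT 3), while mt-Co2 (−0.22 ± 0.10, adjusted p = 0.0888) and mt-Nd3 (0.38 ± 0.18, adjusted p = 0.098) were not called. Without WT 3 both were, mt-Co2 as lower (−0.32 ± 0.05, adjusted p = 0.00316) and mt-Nd3 as higher (0.16 ± 0.06, adjusted p = 0.0422). In the summed fit 6 mitochondrial genes were higher and 2 lower, against 66.2% of all genes called, and their median relative to all genes was 0.17, or −0.02 without WT 3.

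Neighbours that share a messenger RNA then had differences of like size. mt-Atp8 and mt-Atp6 overlap by 43 bases and are known to be read from 1 transcript, as are mt-Nd4l and mt-Nd4, which overlap by 7. As deposited, mt-Atp8 was at −0.46 and mt-Atp6 at 0.95 on the log2 scale, and with the copy added mt-Atp6 was at −0.40. mt-Nd4l and mt-Nd4 were at 0.59 and 0.71 as deposited, and mt-Nd4l at 0.68 with its copy. Along the genome, the summed differences were 0.00 for mt-Nd1, 0.69 for mt-Nd2, 0.01 for mt-Co1, −0.22 for mt-Co2, −0.46 and −0.40 for the mt-Atp genes, 0.39 for mt-Co3, 0.38 for mt-Nd3, 0.68 and 0.71 for mt-Nd4l and mt-Nd4, 1.58 for mt-Nd5 and 0.20 for mt-Cytb. The values were thus highest at mt-Nd5 and lowest at the mt-Atp pair.

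**Figure D4:**
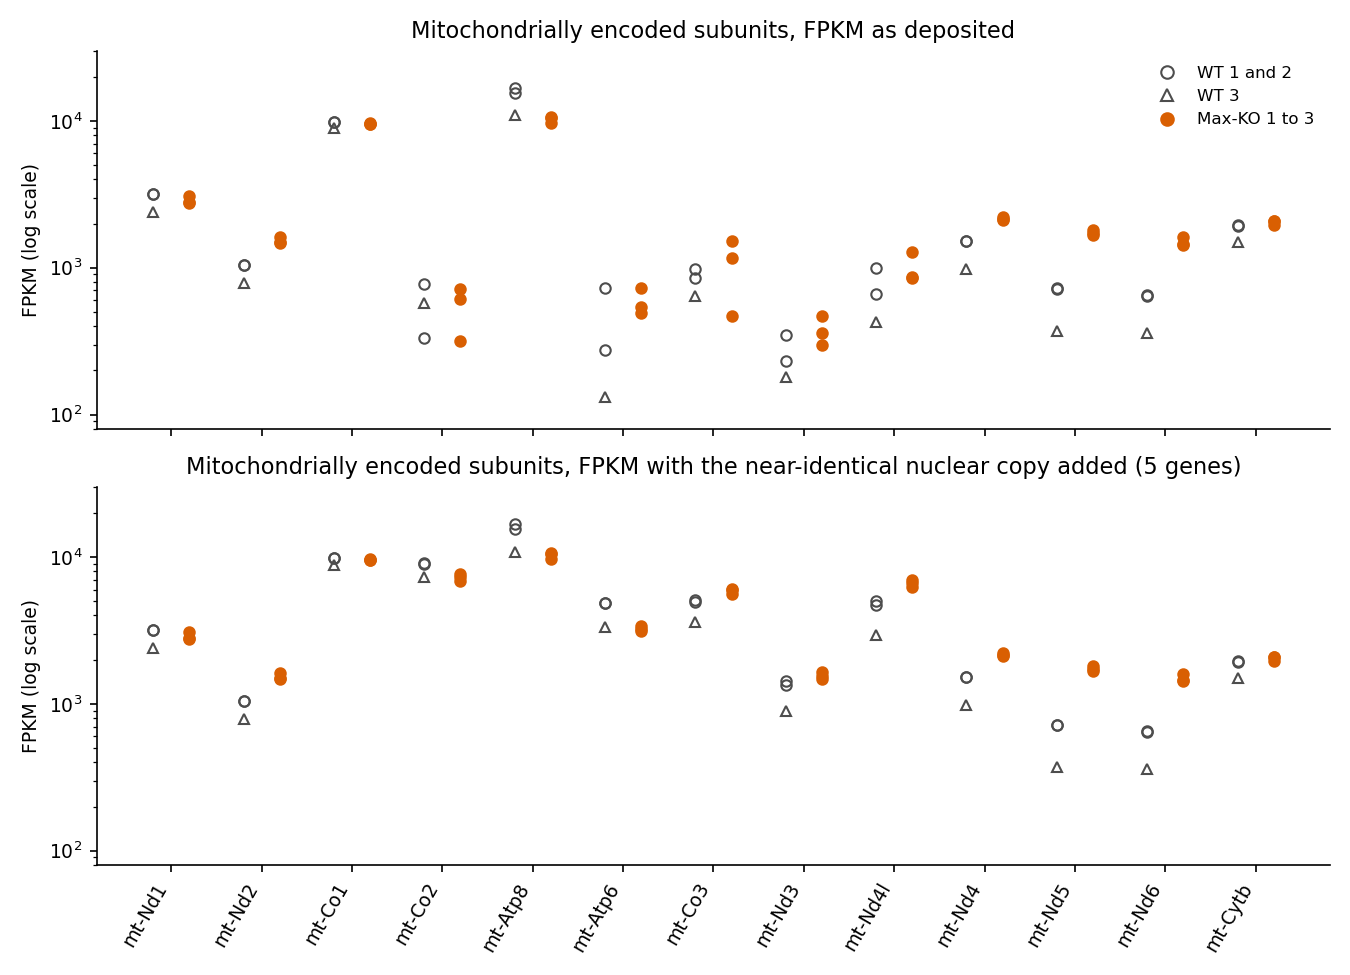
FPKM (log scale) of the 13 mitochondrial subunits in genome order in each library, as deposited (top) and with the near-identical nuclear copy added for 5 genes (bottom), with open symbols for WT (a triangle for WT replicate 3) and filled points for Max-KO. WT replicate 3 is the lowest library for most genes, mt-Nd5 and mt-Nd6 lie well above WT in all 3 Max-KO libraries, and mt-Atp6 scatters from 132 to 730.4 FPKM as deposited but from 3121 to 4892 with its copy.

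Counted by genome, complex I had 8 higher and 11 lower of 36 nuclear members and 4 higher and 0 lower of 7 mitochondrial ones, where 43.0% of all genes were called higher and 23.2% lower. Summed FPKM of the nuclear complex V genes was 6501 to 7264 in WT and 5515 to 5684 in Max-KO, and that of complex II 381 to 420 and 323 to 339, both without overlap. The sums of complexes I, III and IV overlapped between groups, with 3825 to 4264 and 3891 to 3977 FPKM for complex I. As a share of each library's summed FPKM, which was lower in Max-KO, the comparison changed. Complex V held 0.867% to 0.938% in WT and 0.855% to 0.869% in Max-KO and complex II 0.0508% to 0.0543% and 0.0501% to 0.0515%, both with overlap. The shares of complex I (0.511% to 0.551% and 0.597% to 0.604%), complex III (0.269% to 0.289% and 0.313% to 0.323%) and complex IV (0.508% to 0.543% and 0.590% to 0.620%) were higher in Max-KO without overlap. Genes in general also rose on such a scale: with TPM, 54.6% of all genes were called higher and their median log2 difference was 0.43. Relative to that median, the nuclear genes of complexes I, III and IV had medians of −0.24, −0.44 and −0.28.

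Genes around the chain were taken from lists drawn up by function, and their counts stand against 43.0% of all genes called higher and 23.2% called lower. Every list had calls that were lost under some of the 4 scalings. Of 17 assembly factors of complex I, 2 were higher and 8 lower, with a median of −0.09 against 0.21 for all genes. Of the lower calls, only those of Ecsit and Ndufaf7 were kept after rescaling to TPM or to the nuclear protein-coding sum. Ecsit fell from 44.3 ± 3.07 to 14.3 ± 1.17 FPKM (SD, n = 3) and Ndufaf7, a mitochondrial methyltransferase, from 26.1 ± 0.481 to 15.6 ± 2.71, while Timmdc1 rose from 11.4 ± 0.494 to 18.9 ± 0.674. Of 4 factors of complex II, Sdhaf2, which adds flavin to Sdha, was higher (0.31 ± 0.09) and none lower. This call was lost under median-ratio scaling and quantile normalization, and the difference turned to −0.05 with the GC and length correction. Of 6 for complex III, Ttc19 was higher (1.01 ± 0.08) and Uqcc2 (−0.40 ± 0.07) and Uqcc1 (−0.30 ± 0.10) lower, the last with its call lost under TPM and the nuclear protein-coding sum. Of 22 for complex IV, 5 were higher and 7 lower, with Coa7 (−0.98 ± 0.10) and Cox19 (−0.72 ± 0.11) among the lower. Pet117 was higher (1.17 ± 0.41), from 0.787 ± 0.811 to 2.91 ± 1.32 FPKM, passed the filter only through Max-KO and lost its call under median-ratio scaling and quantile normalization.

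Of 6 genes of ATP synthase assembly and control, 1 was higher and 3 lower. Atpif1, the inhibitor that stops ATP synthase running in reverse, fell from 408 ± 10.6 to 192 ± 18.3 FPKM (n = 3, SD) with a log2 difference of −1.09 ± 0.08. Tmem242 was lower (−0.97 ± 0.12). Atpaf1, the chaperone of the beta subunit, was higher (0.35 ± 0.07), though this call was lost under median-ratio scaling and quantile normalization.

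The citrate cycle and pyruvate dehydrogenase, which supply NADH and succinate, had 3 higher and 11 lower of 17, with a median of −0.20, or −0.41 relative to all genes. Idh3a, of the NAD-linked isocitrate dehydrogenase, fell from 60.4 ± 2.84 to 29.5 ± 0.538 FPKM (SD, n = 3), fumarase Fh1 from 42.1 ± 3.17 to 20.8 ± 2.15 and Suclg2 from 32.6 ± 1.60 to 21.5 ± 1.02. Of 13 genes of coenzyme Q synthesis, 3 were higher and 2 lower, with Coq10b (0.53 ± 0.08) and Pdss2 (0.36 ± 0.09) higher and Coq5 (−0.47 ± 0.08) lower. The call of Pdss2 was lost under median-ratio scaling and quantile normalization, and those of Pdss2 and Coq10b with the GC and length correction.

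Among 15 tested carriers and uncouplers, 6 were higher and 8 lower. Slc25a5, an ADP/ATP carrier of the inner membrane, fell from 698 ± 51.5 to 278 ± 6.49 FPKM (n = 3, SD) with a log2 difference of −1.32 ± 0.06, and the citrate carrier Slc25a1 from 81.9 ± 5.91 to 27.6 ± 1.45. Slc25a31, the ADP/ATP carrier known from male germ cells, was at 0.640 ± 0.181 FPKM in WT and 49.6 ± 2.82 in Max-KO (4.95 ± 0.11), and passed the filter only through Max-KO. This stands beside the rise of the germ cell markers given above, whose part in this and in the values of Cox6b2 and Cox8c was not tested.

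The machinery of mitochondrial gene expression also went both ways. Of 20 genes of mitochondrial DNA replication and transcription, 4 were higher and 6 lower, with Rrm2b (1.23 ± 0.10) and Mterf3 (0.93 ± 0.07) higher and Top1mt (−0.93 ± 0.14) lower. Of 20 genes of mitochondrial RNA processing and stability, 1 was higher and 9 lower, with a median of −0.15, or −0.36 relative to all genes. Tbrg4, which is needed for certain mitochondrial messenger RNAs, fell by 1.01 on the log2 scale (100.6 ± 3.45 FPKM in WT, SD, n = 3), Rexo2, an exonuclease, from 54.3 ± 2.63 to 26.3 ± 2.03 and Elac2, which cuts transfer RNAs from the precursors, from 73.2 ± 3.40 to 44.3 ± 1.37. Of 11 tested regulators of nuclear respiratory genes, 4 were higher and 3 lower, with Esrra (−1.34 ± 0.11) and Pprc1 (−0.74 ± 0.06) lower and Foxo1 (0.99 ± 0.07) higher. The remaining lower gene passed the filter only through WT, so its direction was set by the filter. All differences named in these lists are limma estimates ± SE that passed the threshold.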

How the data were processed

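Messenger RNA of 6 libraries, 3 WT and 3 Max-KO, was read from the deposited FPKM values, made by the authors from total RNA with a TruSeq kit per the labels' protocols. FastQC, HISAT2 2.1.0, RSEM and DESeq 1.26.0, and the build GRCm38.p6, are named per the submitters' processing notes, with no role stated. Depth and strand use are not given in the sources used here. FPKM are no counts, so limma 3.58.1 (R 4.3.3; trend and robust moderation, 2-sided) was fitted on log2(FPKM + 1) over all Ensembl genes that averaged 1 FPKM or more in either group, with Benjamini-Hochberg adjustment over all 14661. A fold on this scale understates the change of low genes. The same fit was also run on simulated data with independent noise. The planted differences were larger than most described here, so that run does not check the smaller ones. Symbols, positions, lengths and GC content came from GENCODE M21 (GRCm38) and promoters from RefSeq. Copies were transcripts matching a member at 95% identity or more over at least 80% of their length and 150 bases, with a mean of 1 FPKM or more; those within 10% of the member's length were added to it as an alternative chosen after seeing the data. Alternatives were a pseudocount of 0.1, no filter, 4 scalings, a GC and length correction, no trend, a replicate block and each library left out. Whether replicate numbers pair the libraries is not known. Deviations of same-numbered libraries correlated at −0.000616, 0.0160 and 0.0855, and those of differently numbered libraries at −0.0823 to 0.0653. With 3 libraries in each group, such weak correlations cannot exclude a pairing. The members and lists were chosen with earlier results of these data known. Named are all mitochondrial members, the largest rise, largest fall and most abundant nuclear gene of each complex, the isoform groups, Cyc1, Cycs, the Sdh genes, the 5 largest rises and falls, and up to 3 called genes of each related list; members described by role, and Ndufa3, Cox5a and Atp5s, were named after their values were seen. A single nuclear subunit is counted in the totals and is not reported here by name.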

Additional observations from a re-analysis of the deposited data

How the results depend on the processing

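All 18 alternatives kept the calls of 5 higher and 9 lower nuclear members and of 2 higher mitochondrial members. Higher and lower calls among nuclear members were 8 and 48 under median-ratio scaling, 33 and 12 with TPM, 29 and 22 under quantile normalization, 38 and 10 with the nuclear protein-coding sum, and 14 and 46 with the GC and length correction, with or without a replicate block. Among mitochondrial members they were 4 and 2, 7 and 0, 8 and 0, 7 and 0, and 2 and 6 in the same order, 4 and 0 without the filter, 6 and 2 with copies summed, and 7 and 3 with copies summed and without WT replicate 3. Called mitochondrial members numbered 8 under quantile normalization, the GC and length correction and copies summed, and 10 in the last. With each library left out, mitochondrial members had 0 to 1 lower calls. The nuclear median relative to all genes was −0.16 without the filter, 0.040 under quantile normalization, −0.20 once corrected for GC and length and −0.33 to −0.21 with a library left out, lowest in size without WT 3, also with copies summed (−0.21). The mitochondrial one was 0.87 under quantile normalization, −0.36 once corrected for GC and length, 0.090 to 0.49 with a library left out and −0.023 without WT 3 with copies summed. The cause was not tested. With a replicate block alone, nuclear members had 16 higher and 30 lower calls and mitochondrial ones 4 and 1. Whether the replicate numbers pair the libraries is not known.

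Of 1764 values of 98 named genes under the alternatives, 1486 kept direction and call, 111 lost the call, 66 gained it and 101 changed sign, 78 of them in members that were not called. These are the log2 differences that changed sign. Under median-ratio scaling they were Cox7a1 −0.15, Cox8a −0.049, Sdha −0.10, mt-Co1 −0.19, mt-Nd1 −0.20, Uqcr11 −0.16 and Atp5f1 −0.14. With TPM they were Atp5g1 0.024, Cox4i1 0.11, Cox6a1 0.14, Cox6b1 0.10, Cox7a2 0.11, Cox7c 0.11, Cycs 0.11, Sdhc 0.057, Uqcr10 0.14, mt-Co2 0.21, Ndufs3 0.13, Ndufv2 0.13, Atp5h 0.20 and Atp5o 0.0083. With the nuclear protein-coding sum they were Atp5g1 0.049, Cox4i1 0.13, Cox6a1 0.17, Cox6b1 0.13, Cox7a2 0.14, Cox7c 0.14, Cycs 0.13, Sdhc 0.082, Uqcr10 0.16, mt-Co2 0.24, Ndufs3 0.16, Ndufv2 0.15, Uqcrq 0.015, Atp5h 0.23 and Atp5o 0.034. Under quantile normalization they were Atp5b 0.060, Atp5g1 0.11, Cox4i1 0.36, Cox4i2 −0.046, Cox6a1 0.27, Cox6b1 0.15, Cox7a1 −0.091, Cox7a2 0.10, Cox7c 0.39, Uqcr10 0.28, mt-Co2 0.43, Uqcrq 0.025, Atp5h 0.29 and Atp5o 0.036. Corrected for GC and length, with or without a replicate block, they were Cox6a1 0.11, Sdha −0.11, Uqcrb −0.048, mt-Co1 −0.71, mt-Co3 −0.42, mt-Cytb −0.47, mt-Nd1 −0.72, mt-Nd2 −0.17, mt-Nd3 −0.49, mt-Nd4 −0.24, mt-Nd4l −0.0015, Ndufs1 −0.090, Uqcrh −0.029, Atp5f1 −0.36, Atp5l −0.047, Sdhaf2 −0.054 and Pdss2 −0.0082. With copies summed it was mt-Atp6 −0.40. With copies summed and without WT 3 they were mt-Atp6 −0.58, mt-Co1 −0.040, mt-Nd1 −0.13 and Atp5h 0.035. With a library left out the ranges were Cox7a1 −0.11 to 0.24, mt-Co1 −0.040 to 0.035, mt-Co2 −0.35 to 0.34, mt-Co3 −0.13 to 0.71, mt-Nd1 −0.13 to 0.070, Uqcr11 −0.011 to 0.085 and Atp5h −0.065 to 0.035.

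The number of libraries and the unknown depth limit precision. Levels of genes with a near-identical copy are uncertain. So are those of overlapping genes, because strand use in the counting was not stated.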
